A study of Mus musculus with 6 samples.

Results

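The 10 genes described here encode subunits of the transcription factor NFκB (Nfkb1, Nfkb2, Rela and Relb), the IκB proteins that bind them (Nfkbia, Nfkbib, Nfkbie and Bcl3) and the kinase subunits Ikbkb and Ikbkg, which act on the IκBs. They were chosen by name among the 34745 genes of the count files, by a rule that uses no measured value, though with earlier results of these data known. All 10 had more than 500 counts summed over the 6 libraries and so were among the 10046 genes tested. RNA was sequenced from 889 cells (889-DTC), a murine lung cancer cell line labelled with the strain C57BL/6 and the tissue lung, in 3 libraries labelled sg-con, from cells with Cas9 and a control sgRNA, and 3 labelled sg-kiaa1522, from cells with Cas9 and an sgRNA against kiaa1522 that the labels call KIAA1522-downregulated. The cells of both groups carry Cas9, all come from 1 line, and no treatment with TNFα or cisplatin is given for these libraries. The sources used here do not give which kiaa1522 sgRNA the sequenced cells carried, or whether they were a clone or a pool. The comparison asks which NFκB components differ in RNA level between the groups.

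NFκB proteins are dimers of REL family subunits. In resting cells IκB proteins hold them in the cytoplasm. The IKK complex phosphorylates the IκBs, which are then degraded, and the freed dimers switch on genes for cytokines, adhesion molecules and survival factors, along with several of the IκBs themselves. In lung adenocarcinoma the pathway is known for its links with inflammation and with resistance to cell death.

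Libraries held between 12220001 and 18609376 counts. C77080, the mouse gene for kiaa1522, had 127, 130 and 124 CPM (normalized read counts relative to library size, scaled by TMM, which corrects for library composition) in the 3 sg-con libraries and 210.4, 203 and 216 CPM in those labelled sg-kiaa1522. The transcript of the targeted gene was therefore higher in the libraries labelled sg-kiaa1522. Its log2 fold change was 0.73 (SE 0.0569, adjusted p = 9.1e-05 in the quasi-likelihood fit of edgeR). The label KIAA1522-downregulated does not say whether RNA or protein is meant, and protein is not measured in these data. Directions below are given by label. Of 10 epithelial and lung epithelial markers, 6 passed the filter, while Epcam and Cldn4 were at 3 counts or fewer in every library, and their summed level was 3890 to 4617 CPM in sg-con and 3275 to 3522 CPM in sg-kiaa1522 libraries. The fibroblast list (2 of 7 genes past the filter, Dcn and Lum at 3 counts or fewer) summed to 467 to 486 CPM against 167 to 198 CPM, most of it Col1a2. The leukocyte list (1 of 7, Cd68, with Cd3e, Adgre1 and Itgam at 3 counts or fewer) summed to 1.29 to 2.70 against 10.1 to 13.0 CPM, and no endothelial marker of 5 passed the filter, with sums of 0.809 to 1.78 against 1.00 to 1.24 CPM and Tie1 at 3 counts or fewer in each library. The epithelial, fibroblast and leukocyte sums moved with the groups, while the endothelial sums overlapped, and the part of these markers in the results was not tested. In bulk RNA, fewer cells that express a gene and less of its RNA per cell cannot be told apart.

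The promoters of 2 inhibitor genes that fell are shown because each holds a match to the κB consensus, the 10-base pattern that NFκB dimers bind, written in capitals. They are the 250 bases before the start site in RefSeq (GRCm38.p6), chr12:55492648-55492897 on the minus strand for Nfkbia and chr17:45555450-45555699 on the plus strand for Nfkbie. The match begins 29 bases before the start of Nfkbia and 106 bases before that of Nfkbie.
Nfkbia: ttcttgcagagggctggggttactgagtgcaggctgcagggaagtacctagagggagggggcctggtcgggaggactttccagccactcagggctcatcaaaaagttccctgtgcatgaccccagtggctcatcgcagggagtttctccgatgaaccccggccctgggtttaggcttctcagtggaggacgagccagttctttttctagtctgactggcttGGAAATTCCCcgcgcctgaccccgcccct
Nfkbie: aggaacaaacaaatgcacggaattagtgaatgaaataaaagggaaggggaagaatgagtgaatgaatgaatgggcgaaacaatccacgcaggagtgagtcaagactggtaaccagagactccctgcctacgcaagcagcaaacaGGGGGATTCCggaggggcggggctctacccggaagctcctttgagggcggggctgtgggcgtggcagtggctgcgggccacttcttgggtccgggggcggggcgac

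Bcl3, another IκB gene that fell, and Nfkb2, a subunit gene that rose, also hold matches, printed as stretches of 30 bases. The match of Bcl3 lies just after its start (chr7:19822734-19822763, minus strand). Of 4 places in Nfkb2 with a match, 3 are shown, on the plus strand, at chr19:46304689-46304718 and chr19:46304716-46304745 before the first of its RefSeq start sites but inside the gene as GENCODE M21 draws it, where the first stretch holds overlapping matches, and at chr19:46305695-46305724 near a later one.
Bcl3: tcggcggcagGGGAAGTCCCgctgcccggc
Nfkb2, first stretch: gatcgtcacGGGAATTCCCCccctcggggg
Nfkb2, next stretch: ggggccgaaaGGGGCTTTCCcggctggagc
Nfkb2, later start: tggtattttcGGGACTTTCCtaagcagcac

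Promoter windows of 300 bases, from 250 before to 50 after a start site, were at hand for 7 of the 10 genes, and both strands were searched. The consensus was found in those of 4 genes, Nfkb2, Nfkbia, Nfkbie and Bcl3, and its letters were not in the windows of Rela, Nfkbib and Ikbkg. Over all RefSeq windows, 1480 of 32851 (4.51%) hold it, and 0.554% hold it at 2 or more places, as Nfkb2 does. Counted by gene, 1388 of 27025 (5.14%) hold it in any of their windows. Nfkb1, Relb and Ikbkb have no entry in the promoter table. A match is a description of the letters, and the matches stood in genes that changed in both directions. Among all tested genes with a match, 108 of 458 (23.6%) were lower and 128 (27.9%) higher, beside 25.9% and 26.5% of the 7694 tested genes with a window.

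Of the 4 REL subunit genes, Rela and Nfkb2 were higher in the libraries labelled sg-kiaa1522, and Nfkb1 and Relb did not pass the test. Rela encodes p65, the main transactivating subunit of the canonical dimer, and lies on GRCm38 at chr19:5637483-5648130. It stood at 94.5, 115 and 117 CPM in the sg-con libraries and at 161, 151 and 156 CPM in the sg-kiaa1522 libraries. The groups did not overlap, and the lowest sg-con library, replicate 1, lay well under the other two. The means were 109 ± 12.5 and 156 ± 4.76 CPM (SD, n = 3), a 1.43-fold difference (log2 fold change 0.52, SE 0.0903, edgeR quasi-likelihood adjusted p = 0.00249).

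Nfkb2 (chr19:46304320-46312385) encodes p100, which is processed to the p52 subunit of the non-canonical pathway. Its values were 146, 159 and 162 CPM in sg-con and 189.9, 182 and 188 CPM in sg-kiaa1522 libraries. Every sg-kiaa1522 library lay above every sg-con library, by a smaller margin than for Rela. The means rose from 156 ± 8.48 to 187 ± 4.18 CPM (SD, n = 3; log2 fold change 0.26, SE 0.0629, edgeR adjusted p = 0.0106). Psd, on the other strand, shares 6.52% of the exon length of Nfkb2 and had 28 to 60 counts per library, against 2305 to 3334 for Nfkb2. AC114539.1, which was not analysed here, shares 11.6%.

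Nfkb1 (chr3:135584655-135691547) encodes p105, the precursor of the p50 partner of p65. It had 57.9, 62.5 and 60.0 CPM in sg-con and 55.0, 57.5 and 56.6 CPM in sg-kiaa1522 libraries. The sg-kiaa1522 libraries all lay below the sg-con libraries, but by less than the test separates (means 60.1 ± 2.31 and 56.4 ± 1.25 CPM, SD, n = 3; log2 fold change -0.09, 95% interval -0.23 to 0.05, edgeR adjusted p = 0.299).

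Relb (chr7:19606217-19629438) encodes the subunit that pairs with p52. Its values of 24.0, 29.6 and 33.1 CPM in sg-con enclosed the 29.4, 26.0 and 27.4 CPM of the sg-kiaa1522 libraries. The groups overlapped, with a log2 fold change of -0.07 (95% interval -0.32 to 0.18, edgeR adjusted p = 0.678). Without sg-con replicate 3 its sign turned, to 0.035 (adjusted p = 0.839).

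Among the IκB genes, Nfkbia, Nfkbie and Bcl3 were lower in the libraries labelled sg-kiaa1522, and Nfkbib, the remaining one, did not pass the test. Nfkbie (chr17:45555703-45563169), which encodes IκBε, had the largest fold change of the 10 genes. Its levels were 27.4, 29.7 and 28.2 CPM in sg-con and 9.31, 11.5 and 11.0 CPM in sg-kiaa1522 libraries. Both groups were tight and far apart, and the sg-kiaa1522 mean was 37.3% of the sg-con mean (28.4 ± 1.14 to 10.6 ± 1.13 CPM, SD, n = 3; log2 fold change -1.42, SE 0.108, edgeR adjusted p = 8.5e-05).

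Bcl3 (chr7:19808462-19822770) encodes a nuclear IκB protein that binds p50 and p52 dimers on DNA and can act there as a coactivator, so it is not a cytoplasmic inhibitor like the others. It stood at 15.4, 21.4 and 23.3 CPM in sg-con and at 8.98, 8.35 and 8.36 CPM in sg-kiaa1522 libraries. The sg-con libraries were spread, with replicate 1 lowest, while the sg-kiaa1522 libraries were close together. The mean of 8.56 ± 0.361 CPM was 42.7% of that in sg-con, 20.0 ± 4.11 CPM (SD, n = 3; log2 fold change -1.23, SE 0.165, edgeR adjusted p = 7.7e-04). Gm16175, an antisense gene that shares 6.51% of its exon length, had 0 counts in every library.

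Nfkbia (chr12:55489410-55492647) encodes IκBα, the inhibitor best known for being degraded and then made anew when NFκB is activated. It had 67.9, 78.5 and 79.7 CPM in sg-con and 49.5, 51.9 and 46.8 CPM in sg-kiaa1522 libraries. The groups did not overlap, and the fall, to 65.5% of the sg-con mean, was smaller than that of Nfkbie or Bcl3 (75.4 ± 6.50 to 49.4 ± 2.56 CPM, SD, n = 3; log2 fold change -0.61, SE 0.0892, edgeR adjusted p = 0.00113).

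Nfkbib (chr7:28758251-28767512) encodes IκBβ, which also retains dimers in the cytoplasm. Its values were 20.8, 28.1 and 32.4 CPM in sg-con and 37.0, 30.1 and 32.4 CPM in sg-kiaa1522 libraries, so that the groups overlapped. The log2 fold change of 0.29 had a 95% interval from -0.04 to 0.61 (edgeR adjusted p = 0.18), which holds both no difference and a rise larger than that of Rela. With the trend of fold changes on exon length removed it was 0.43 (adjusted p = 0.0260), and with that on GC content 0.35 (adjusted p = 0.0476). Sirt2, on the other strand, shares 1.94% of its exon length and did not pass the test (log2 fold change -0.02, edgeR adjusted p = 0.942), and Ccer2, which was not analysed here, shares 14.5%.

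Both IKK genes were higher in the libraries labelled sg-kiaa1522. Ikbkg (chrX:74393290-74453854) encodes NEMO, the regulatory subunit that binds ubiquitin chains. It had 27.7, 21.3 and 26.2 CPM in sg-con and 40.9, 37.7 and 34.8 CPM in sg-kiaa1522 libraries. The groups stood clear of each other, with a 1.51-fold difference (25.1 ± 3.34 to 37.8 ± 3.03 CPM, SD, n = 3; log2 fold change 0.59, SE 0.12, edgeR adjusted p = 0.00475). This was the largest fold rise of the 10 genes in this fit, but Rela was above it with the exon length trend removed (0.60 and 0.49) and without sg-con replicate 2 (0.55 and 0.48). G6pdx, which overlaps 5.15% of its exon length on the other strand, had a log2 fold change of 0.03 (adjusted p = 0.715).

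Ikbkb (chr8:22659212-22706589) encodes IKKβ, the kinase that phosphorylates IκBα in the canonical pathway. It had 48.0, 47.8 and 46.3 CPM in sg-con and 55.2, 67.2 and 57.4 CPM in sg-kiaa1522 libraries. Every sg-kiaa1522 library was above the sg-con libraries, with replicate 2 the highest (47.4 ± 0.911 to 59.9 ± 6.39 CPM, SD, n = 3; log2 fold change 0.34, SE 0.0929, edgeR adjusted p = 0.0172). This call was lost with the exon length trend removed (0.10, adjusted p = 0.464), and without sg-con replicate 2 (0.34, adjusted p = 0.0579), sg-con replicate 3 (0.32, adjusted p = 0.0504) or sg-kiaa1522 replicate 2 (0.25, adjusted p = 0.0592).

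**Figure D1:**
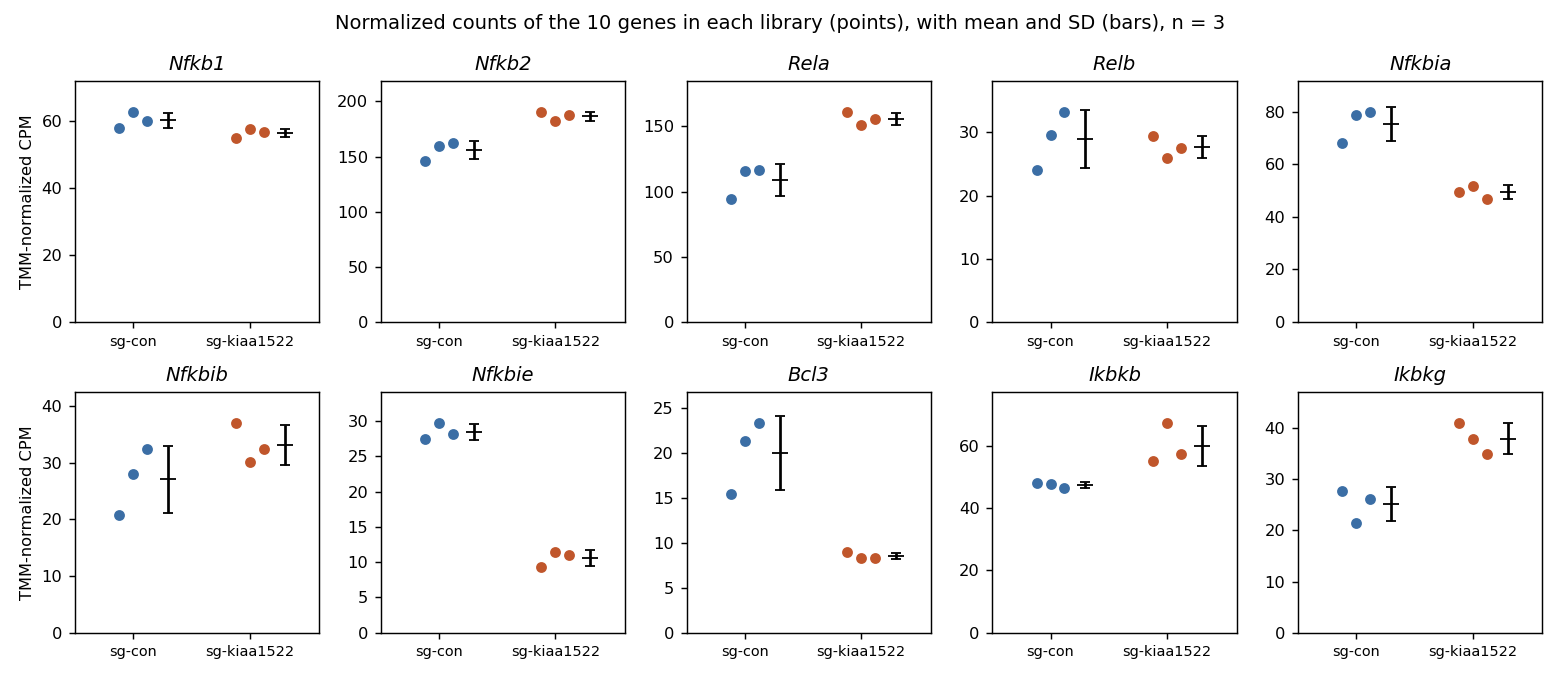
TMM-normalized CPM (vertical axes, linear from 0) of each of the 10 genes in the 3 sg-con and 3 sg-kiaa1522 libraries, as points, with the mean and SD as bars. Nfkbie, Bcl3 and Nfkbia sit lower and Rela, Nfkb2, Ikbkg and Ikbkb higher in the sg-kiaa1522 libraries with no overlap, while the points of Relb and Nfkbib overlap.

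By count, 3 of the 10 genes were lower and 4 higher at an adjusted p of at most 0.05, beside 26.3% of all tested genes lower and 26.3% higher. When the change also had to reach 1 on the log2 scale in either direction, the threshold given in the methods of the study, 2 were lower (Nfkbie and Bcl3), beside 4.34% of all tested genes, and 0 were higher, beside 2.74%. The groups did not overlap for 8 of the 10, beside 61.7% of all tested genes, and nothing is read from these shares. The median log2 fold change was 0.10 over the 4 REL subunit genes, -0.92 over the 4 IκB genes and 0.47 over the IKK pair, beside -0.0067 over all tested genes.

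Fold changes followed gene length across the tested genes. The median log2 fold change rose from -0.17 in the genes with the shortest summed exons (the lowest of 5 equal bins) to 0.15 in those with the longest, and the share of genes called lower fell from 37.4% to 16.8%. The 10 genes run from 1610 exon bases (Nfkbia) to 19078 (Ikbkb), so each fold change is also given with this trend removed. The fall of Nfkbia was then -0.44 (adjusted p = 0.00119), that of Nfkbie -1.34 (adjusted p = 7.7e-05) and that of Bcl3 -1.10 (adjusted p = 4.9e-04). Rela was at 0.60 (adjusted p = 3.8e-04), Nfkb2 at 0.28 (adjusted p = 0.00491) and Ikbkg at 0.49 (adjusted p = 0.00857). The 3 falls and these 3 rises thus kept their direction and their call, and Ikbkb did not keep its call. Nfkb1 moved to -0.25 (adjusted p = 0.0523) and Relb to -0.03 (adjusted p = 0.847), and the value of Nfkbib is given above.

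**Figure D2:**
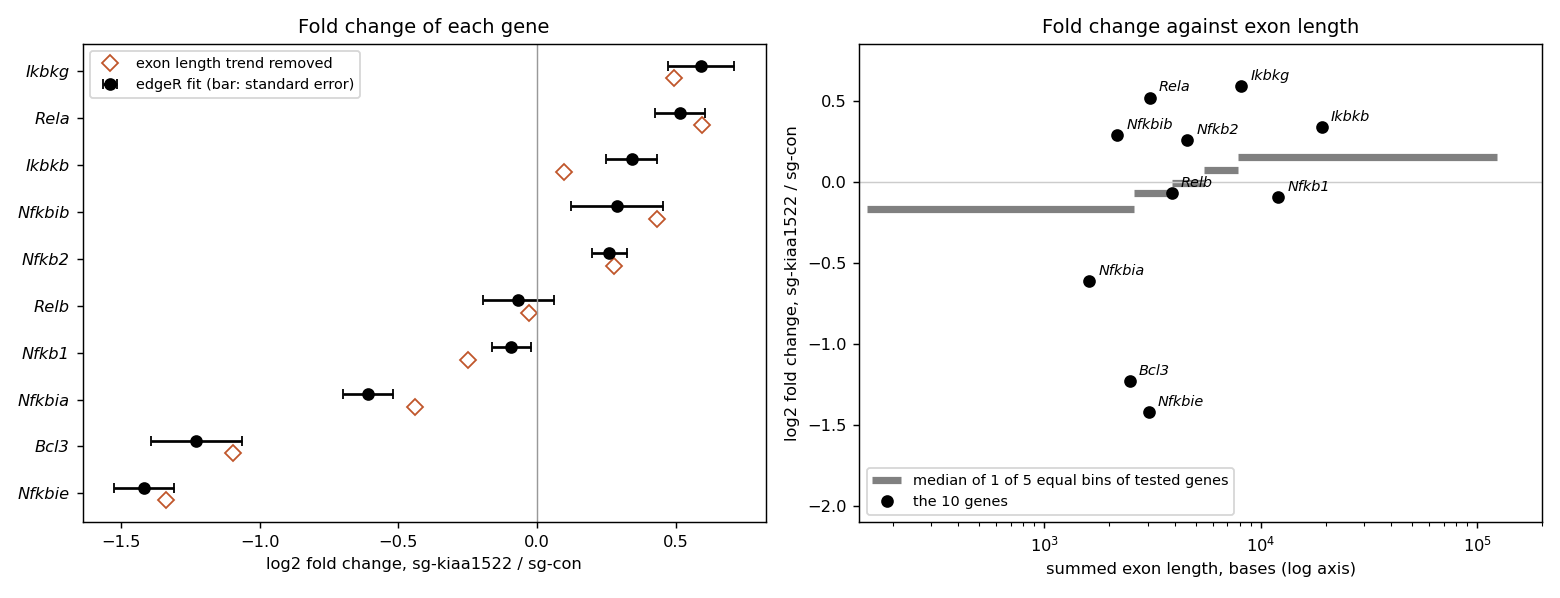
Left, log2 fold change (sg-kiaa1522 over sg-con, horizontal axis) of each gene with its standard error, and as open diamonds with the exon length trend removed; right, log2 fold change against summed exon length in bases (log axis), with the median of each of 5 equal bins of tested genes as grey bars. Nfkbie and Bcl3 lie far below the grey bars of their length, and the diamond of Ikbkb, the longest gene, lies nearest to 0 among the called genes, at 0.10.

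Some NFκB proteins bind each other and others act alike, so the log2 ratio of CPM within each library was compared for 5 pairs. The ratio needs no scaling between libraries. Nfkbia relative to Rela, an inhibitor relative to the subunit it holds, differed most between the groups. The log2 ratio was -0.48, -0.55 and -0.55 in sg-con and -1.70, -1.54 and -1.73 in sg-kiaa1522 libraries, a difference of -1.13. Nfkbib relative to Nfkbia differed in the other direction, from a mean of -1.50 ± 0.205 to -0.58 ± 0.188 (SD, n = 3). Between these inhibitor transcripts the difference was 0.92 on the log2 scale toward Nfkbib.

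Relb relative to Rela went from -1.92 ± 0.0878 to -2.50 ± 0.046, and Nfkb2 relative to Nfkb1 from 1.37 ± 0.053 to 1.73 ± 0.0629 (SD, n = 3). The groups did not overlap for these 4 pairs, each with p = 0.1 from the exact two-sided permutation test, the smallest p that 3 libraries against 3 can give (adjusted over the 5 pairs, 0.125), so no pair could pass 0.05. Ikbkb relative to Ikbkg overlapped, at 0.93 ± 0.207 and 0.66 ± 0.207 (exact p = 0.3, adjusted 0.3).

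**Figure D3:**
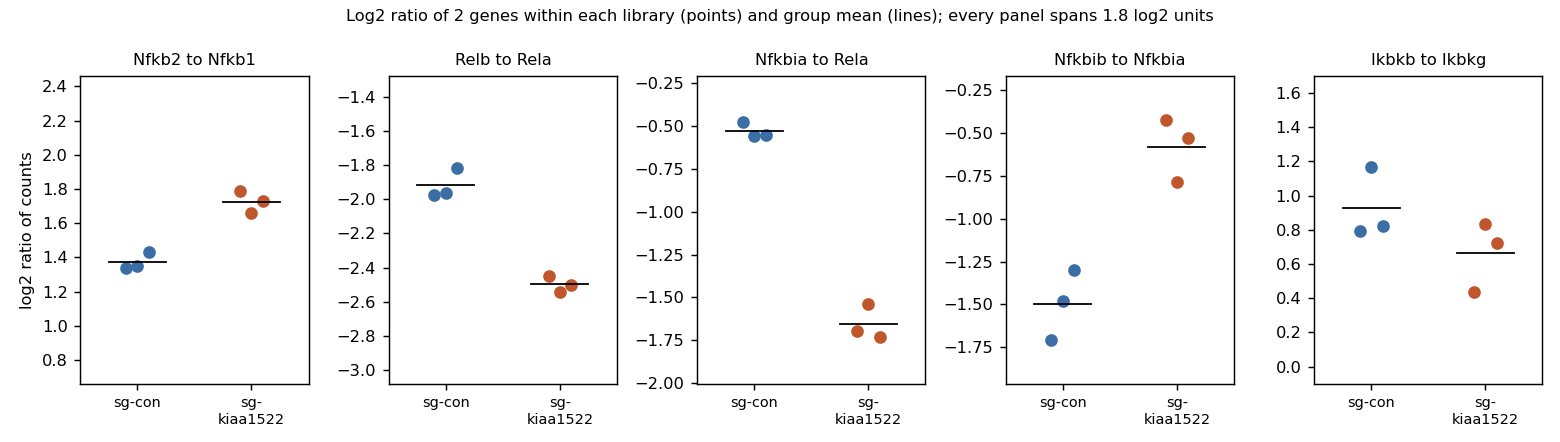
Log2 ratio of CPM (vertical axis) for 5 pairs of genes, with 1 point per library and the group mean as a bar. The points of Nfkbia relative to Rela lie between -0.55 and -0.48 in sg-con and between -1.73 and -1.54 in sg-kiaa1522 libraries, and those of Ikbkb relative to Ikbkg overlap.

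Levels between genes were compared per length, as TPM, transcript abundance relative to all transcripts of a library, from the counts and the summed exon length of each gene. In sg-con libraries Nfkbia was the most abundant of the 10 transcripts, at 119.9 ± 7.84 TPM (SD, n = 3). Rela at 90.7 ± 8.51 and Nfkb2 at 87.1 ± 2.92 TPM followed and overlapped each other. Nfkbib came next at 31.9 ± 6.37 TPM, above Nfkbie (23.9 ± 0.623), Bcl3 (20.7 ± 3.87) and Relb (19.1 ± 2.67). Bcl3 overlapped both of its neighbours, while Nfkbie lay above Relb in every library. Below them stood Nfkb1 (12.8 ± 0.285), Ikbkg (7.94 ± 1.19) and Ikbkb (6.37 ± 0.233 TPM). By this length the transcript of IκBα led the order and the IKK transcripts closed it.

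In the sg-kiaa1522 libraries the order at the top was different. Rela stood first at 139 ± 5.21 TPM and Nfkb2 second at 111 ± 3.72, with Nfkbia after them at 83.9 ± 3.08 TPM (SD, n = 3), and the values of these genes did not overlap. Nfkbib (41.8 ± 4.54) and Relb (19.4 ± 1.31) followed, Nfkb1 (12.8 ± 0.319) and Ikbkg (12.7 ± 0.910) overlapped, and Nfkbie (9.52 ± 1.03), Bcl3 (9.46 ± 0.396) and Ikbkb (8.59 ± 0.834 TPM) overlapped at the bottom. The order depends on the length used. With the mean transcript length Nfkbia was at 88.5 TPM in sg-con, and Rela, at 119 TPM, was first there and also in the sg-kiaa1522 libraries. Ikbkb was then at 24.8 TPM in sg-con, above Relb, Nfkbie and Ikbkg, and so no longer last.

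Summed by role, REL subunit transcripts stood at 194, 215 and 220.0 TPM in sg-con and 288, 271 and 288 TPM in sg-kiaa1522 libraries. IκB transcripts stood at 176, 203 and 211 TPM in sg-con and 148, 144 and 142 TPM in sg-kiaa1522 libraries, and the IKK pair at 14.3 ± 1.31 and 21.3 ± 0.904 TPM (SD, n = 3). The subunit sum was thus higher and the IκB sum, which includes Bcl3, lower in the sg-kiaa1522 libraries, with no overlap. Not every gene followed its sum. From sg-con to sg-kiaa1522 libraries, mean TPM hardly differed for Nfkb1 (12.8 and 12.8) and Relb (19.1 and 19.4). That of Nfkbib was higher (31.9 and 41.8), with overlap. Nfkbia, Nfkbib and Nfkbie together amounted to 0.838 ± 0.0119 of the subunit sum in sg-con and 0.479 ± 0.0183 in sg-kiaa1522 libraries (SD, n = 3), and to 0.535 ± 0.0111 and 0.317 ± 0.0110 with the mean transcript length. These are RNA levels, given with no test, and say nothing of the proteins.

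**Figure D4:**
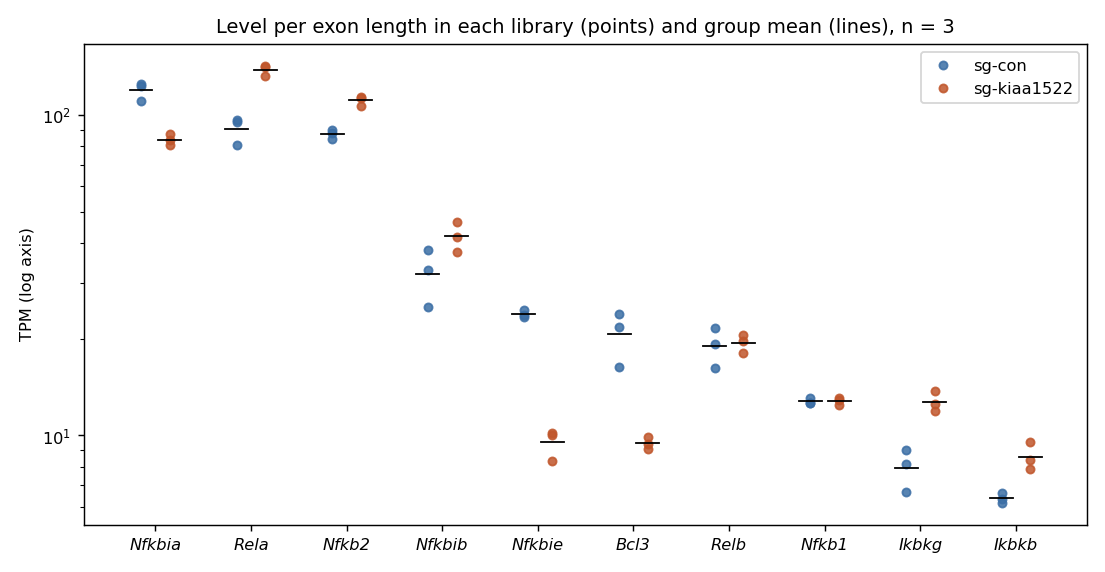
TPM (log axis) of each gene in the 3 sg-con and 3 sg-kiaa1522 libraries, 1 point per library. Nfkbia leads the sg-con libraries at 119.9 TPM on average and stands in the sg-kiaa1522 libraries behind Rela and Nfkb2.

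Of 4 further family genes, Chuk, which encodes IKKα, was higher in the libraries labelled sg-kiaa1522, with 45.3, 36.7 and 32.9 CPM in sg-con and 70.5, 75.2 and 87.6 CPM in sg-kiaa1522 libraries (log2 fold change 1.02, SE 0.138, edgeR adjusted p = 7.8e-04). Of the 3 genes of the IKK complex, Chuk had the largest fold change, and the call of Ikbkb, as above, was lost with the exon length trend removed. Nfkbiz, which encodes the nuclear IκBζ, was lower, at 44.7 ± 5.03 and 26.0 ± 1.54 CPM (SD, n = 3; log2 fold change -0.78, SE 0.104, edgeR adjusted p = 7.4e-04). Rel, the gene for the c-Rel subunit, stood at 42.9 ± 8.86 and 54.2 ± 3.74 CPM and did not pass the test (log2 fold change 0.34, adjusted p = 0.0852). Nfkbid had 0 counts in all 6 libraries, where 3 counts would amount to 0.162 to 0.247 CPM.

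The lists below are set beside all tested genes, of which 26.3% rose and 26.3% fell. Of 19 receptor adaptors and ubiquitin ligases, 17 were tested, 4 rose (23.5%) and 2 fell (11.8%), with a median log2 fold change of 0.09, and without sg-con replicate 2 or 3 only 1 rose. Traf1, an adaptor of TNF receptors, went from 12.1 ± 3.10 to 20.6 ± 1.37 CPM (SD, n = 3; log2 fold change 0.77, edgeR adjusted p = 0.00847), and Ripk1, the kinase scaffold of the TNF receptor complex, had a log2 fold change of 0.62 (adjusted p = 0.0298). Traf6, the ligase of the interleukin and Toll-like receptor branch, had 0.33 (adjusted p = 0.048). Ube2n, the conjugating enzyme that builds K63-linked ubiquitin chains, fell (-0.53, adjusted p = 0.0014), as did the ligase Traf2 (-0.31, adjusted p = 0.0178). With the replicate number as a block, 2 of the list rose and 1 fell, and Traf2 and Traf6 were no longer called (adjusted p = 0.0681 and 0.0751).

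Of 14 upstream kinases and their partners, 12 were tested, 3 rose (25% of those tested, next to the 26.3% of all tested genes) and 2 fell (16.7%, beside 26.3%; median 0.24). The rises numbered 6 without sg-con replicate 1 and 5 with DESeq2 or with the GC content trend removed. The falls were in Ikbke, an IKK-related kinase, from 21.8 ± 0.424 to 12.2 ± 0.360 CPM (SD, n = 3; log2 fold change -0.84, edgeR adjusted p = 2.6e-04), and Map3k14, which encodes NIK, the kinase that drives the processing of p100, from 28.7 ± 1.24 to 17.6 ± 1.96 CPM (-0.71, adjusted p = 0.00125). Map3k14 fell where Nfkb2, the gene of p100, rose. Tank, an adaptor of the IKK-related kinases, rose by a log2 fold change of 0.84 (adjusted p = 0.00155), Map3k3 by 0.72 (adjusted p = 9.1e-04) and Csnk2a1, a casein kinase subunit, by 0.19 (adjusted p = 0.0267, and 0.106 with the block).

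Among the deubiquitinases and other brakes on the pathway, 16 of 18 were tested, 5 rose (31.2%) and 4 fell (25%), close to the shares of all tested genes (median -0.04). Pdlim2, a ligase that targets nuclear p65, went from 86.4 ± 11.7 to 31.4 ± 0.748 CPM (SD, n = 3; log2 fold change -1.46, edgeR adjusted p = 7.5e-05). Zc3h12a, an RNase that degrades cytokine transcripts, had -1.30 (adjusted p = 8.0e-05) and Nlrx1 -0.77 (adjusted p = 0.0108). The deubiquitinase Usp7 (0.67, adjusted p = 2.1e-04), the ligase Itch (0.60, adjusted p = 0.00341) and N4bp1 (0.53, adjusted p = 9.2e-04) rose. The fall of Pdlim2 was about the size of that of Nfkbie, and the others named were smaller.

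For the turnover of IκB, all 12 genes were tested, 2 rose (16.7%, beside 26.3% of all tested genes) and 4 fell (33.3%, beside 26.3%; median -0.10). Fbxw11, the F-box protein that recognises phosphorylated IκB, rose (0.40, edgeR adjusted p = 0.0019), as did the segregase gene Vcp (0.33, adjusted p = 0.00512). Nedd8, the ubiquitin-like protein that activates cullin ligases (-0.88, adjusted p = 2.2e-04), Cops5, the signalosome subunit that removes it (-0.84, adjusted p = 1.9e-04), and the conjugating enzyme Ube2d1 (-0.44, adjusted p = 0.00346) fell.

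Of 16 cofactors and transporters of p65, 15 were tested, 7 rose (46.7%, beside 26.3% of all tested genes) and 3 fell (20%, beside 26.3%; median 0.15). The acetyltransferase genes Ep300 (0.89, edgeR adjusted p = 0.000995) and Crebbp (0.60, adjusted p = 0.00331) rose. The deacetylase genes Hdac1 (-0.68, adjusted p = 6.9e-04) and Hdac3 (-0.39, adjusted p = 0.00348) fell.

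Of 48 transcription targets, 26 were tested, 6 rose (23.1%, beside 26.3% of all tested genes) and 11 fell (42.3%, beside 26.3%; median -0.14). The remaining 22, Il6, Tnf and Cxcl2 among them, had 500 counts or fewer in all. Without sg-con replicate 2, or without any 1 of the sg-kiaa1522 libraries, 3 rose. Cxcl1, a neutrophil chemokine, went from 46.2 ± 2.81 to 5.12 ± 0.711 CPM (SD, n = 3; log2 fold change -3.18, edgeR adjusted p = 8.4e-06), Ccl2, a monocyte chemokine that passed the filter only through the sg-con libraries, where it is high, had -2.84 (adjusted p = 2.0e-04), and Vcam1, an adhesion molecule, went from 744 ± 93.8 to 109 ± 8.74 CPM (-2.77, adjusted p = 8.4e-06). Ptgs2, the inducible cyclooxygenase, moved against them, from 501 ± 87.4 to 1287 ± 62.8 CPM (1.36, adjusted p = 1.3e-04), as did the matrix metalloproteinase gene Mmp3, from 0.686 ± 0.0816 to 10.1 ± 2.17 CPM (3.86, adjusted p = 3.9e-05), which had 501 counts in all and so passed the filter only through the libraries where it is high, and Lif, a cytokine of the interleukin-6 family (0.50, adjusted p = 0.0121). Nfkbia, Nfkbie, Bcl3 and Nfkb2, themselves known targets, were left out of this list as members.

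**Figure D5:**
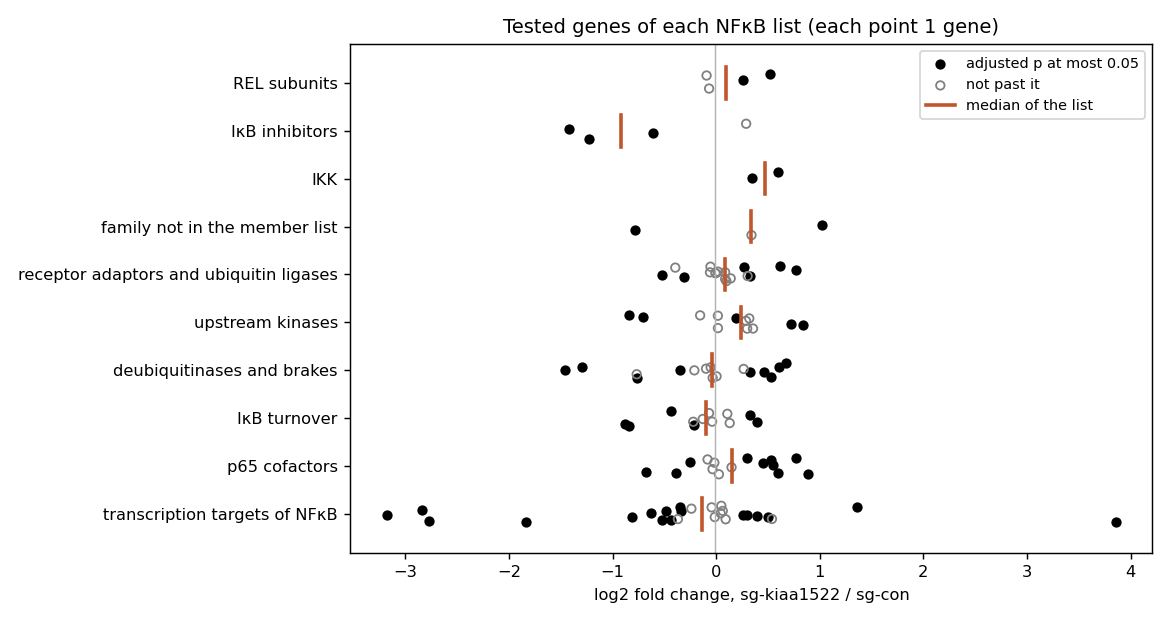
Log2 fold change (sg-kiaa1522 over sg-con, horizontal axis) of every tested gene in each list, filled where the adjusted p is at most 0.05, with the median of the list as a bar. The IκB genes have the lowest median, -0.92, and points of the target list lie as far out as Cxcl1 at -3.18 and Ptgs2 at 1.36, with Mmp3, at 3.86, past the filter only through the libraries where it is high.

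The genes whose pattern over the 6 libraries was most like that of Ikbkg, the gene with the largest rise in the fit of all 6 libraries with no trend removed, were Crebbp, Zbtb18 and Coprs, with root-mean-square differences of 0.0428, 0.0513 and 0.0543 in centred log2 CPM. For Nfkbie, the gene with the largest fall, they were Mgst1, Prim1 and Egr1, at 0.0559, 0.0631 and 0.0642. These values describe likeness over 6 libraries only.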

How the data were processed

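The authors trimmed reads with Seqtk and, per the paper's methods and the submitters' processing notes, mapped them to GRCm38 with HISAT2 2.0.4 and counted uniquely mapped fragments per gene with StringTie 1.3.0. The deposited values are raw counts per gene, without normalization, in 6 libraries. The annotation release and the strand setting of the counting are not given in the sources used here, so reads of overlapping genes on opposite strands cannot be told apart. Nothing says whether replicates were separate cultures, so p-values measure the spread between these libraries, which may be technical. Within groups, libraries differed by more than sampling noise.

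Genes with more than 500 summed counts (10046 genes, with 99.5% to 99.6% of counts) were tested with the quasi-likelihood test of edgeR 4.0.16 in R 4.3.3, TMM normalization and Benjamini-Hochberg adjustment over all tested genes, without covariates. The script was tested on simulated data. Positions and exon lengths came from GENCODE M21 on GRCm38. Intervals are 95%, from the standard error. Pair ratios were compared with exact permutation tests.

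The alternatives tried were the exact test and the likelihood ratio test of edgeR, the Wald test of DESeq2 1.42.0, scaling by RLE or by library size only, a filter at 1 count and filterByExpr, the replicate block, omission of each library, another length for TPM, and loess offsets on exon length and GC content, the last 2 chosen after the data were seen.

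The 10 genes and all lists were chosen with earlier results of these data known. Named genes are the 10, the 4 further family genes, C77080, up to 3 called genes per direction in each pathway list with the largest fold changes, and the 3 genes most like the members with the largest rise and fall. Some genes that this rule names are not reported here. Overlapping genes are named for their position. Marker lists were epithelial, leukocyte, fibroblast and endothelial.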

Additional observations from a re-analysis of the deposited data

How the results depend on the processing

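Of 160 alternative values for the 10 genes, 153 kept direction and call, 4 lost the call, 2 gained it and 1 turned sign. With the exon length trend removed, Ikbkb lost its call (0.10) and Nfkbib gained one (0.43), which Nfkbib also did with GC content removed (0.35). With single libraries left out, Relb ranged from -0.19 to 0.035, turning sign, and Ikbkb from 0.25 to 0.40, losing its call in 3 of 6 fits, while Nfkbib, called in none, ranged from 0.12 (without sg-con replicate 1) to 0.43 (without sg-con replicate 3). The causes were not tested. Over all alternatives run, Nfkbie stayed between -1.48 and -1.34, Bcl3 between -1.39 and -1.10, Nfkbia between -0.69 and -0.44, Rela between 0.41 and 0.60, Ikbkg between 0.48 and 0.66 and Nfkb2 between 0.21 and 0.32, all called.

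The replicate numbers did not pair the libraries: deviations of same-numbered libraries correlated at -0.23, -0.053 and -0.17. A fit with a replicate block called 2111 genes lower and 2109 higher, where the fit without it called 2639 and 2638, and the same 7 of the 10 genes were called, Nfkb2 at an adjusted p of 0.0493 and Ikbkb at 0.0481. Adaptors and ubiquitin ligases then had 1 fall and 2 rises.

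For the lists, leaving out single libraries gave 1 to 3 falls (1 without sg-con replicate 2 or 3 or sg-kiaa1522 replicate 2 or 3) and 1 to 5 rises among the adaptors (1 without sg-con replicate 2 or 3, 2 without sg-kiaa1522 replicate 1), 3 to 5 rises among the targets (3 without sg-con replicate 2 or any 1 of the sg-kiaa1522 libraries), 2 to 6 among the upstream kinases (6 without sg-con replicate 1) and 1 to 2 in the family genes (2 without sg-con replicate 1). The upstream kinases had 5 rises with DESeq2 and 5 with GC content removed. With mean transcript length, sg-con TPM was 29.7 for Nfkb1, 76.6 for Nfkb2, 119 for Rela, 88.5 for Nfkbia, 14.6 for Nfkbie, 34.9 for Bcl3, 24.8 for Ikbkb and 11.5 for Ikbkg. With 3 libraries a group and depths of 12220001 to 18609376 counts, intervals for Nfkbib and Relb hold both rises and falls.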

Other observations

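Nkx2-1, the lung lineage transcription factor, varied within both groups, with 970, 1096 and 227 counts in the sg-con libraries and 132, 174 and 671 in the sg-kiaa1522 libraries. The low sg-con library and the high sg-kiaa1522 library were both replicate 3, and the gene did not pass the test (log2 fold change -1.09, edgeR adjusted p = 0.208). Leaving out any 1 of the 6 libraries ended no call for Nfkbie or Bcl3. Cdh1, the epithelial cadherin, was lower (log2 fold change -1.45, edgeR adjusted p = 5.1e-05), as was the keratin gene Krt19 (-0.73, adjusted p = 0.00117), and Cd68, the one leukocyte marker past the filter, was higher (3.23, adjusted p = 2.0e-05), but passed the filter only through the sg-kiaa1522 libraries, where it is high.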
